A study of Mus musculus with 7 samples.

Results

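The nuclear genes for respiratory complexes II to V were taken by symbol from a table of ribosome footprints in mouse skin. The patterns were Sdha to Sdhd for complex II, Uqcr and Cyc1 for complex III, Cox4 to Cox8 for complex IV and Atp5 for complex V. They gave 45 genes among 13047 distinct symbols: 4 of complex II, 9 of complex III, 15 of complex IV and 17 with an Atp5 symbol. No symbol among them was repeated, so no row had to be dropped.

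In ribosome profiling, the stretches of mRNA shielded by ribosomes (footprints) are sequenced, and their count measures ribosomes on a region of a transcript. The libraries came from primary epidermis (the outermost skin layer), whose cells had been grown per the labels, of wild-type mice (WT, 2 libraries) and of Pelota knockout mice (KO, 2 libraries). Pelota, encoded by Pelo, is known to release ribosomes that have stalled on mRNA. RNA-seq libraries of the same tissue (2 KO, 1 WT per the labels) were not analysed here, so more mRNA and more ribosomes per mRNA cannot be told apart. Strain, age, sex, the promoter or Cre line behind the knockout and the number of animals per library are not stated in the labels. All 4 libraries were depleted of ribosomal RNA with the same kit, per the labels. Replicates are not said to come from separate animals, and the p-values cover only the spread among these libraries. Values are given in the order replicate 1, replicate 2 within each genotype.

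The respiratory chain passes electrons from nutrients to oxygen across the inner mitochondrial membrane, and ATP synthase uses the proton gradient that results. Complex II (succinate dehydrogenase) also catalyses a step of the citric acid cycle and is the one complex of this chain whose subunits are all encoded in the nucleus. Complex III (cytochrome bc1), complex IV (cytochrome c oxidase) and complex V (ATP synthase) each combine nuclear with mitochondrially encoded subunits. The table held 0 mitochondrially encoded genes, and those subunits were not analysed here.

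Coding footprints totalled 4521561 to 4925876 in KO and 4221675 to 5282276 in WT. Pelo had 101 and 61 footprints in the WT libraries and 24 and 21 in the KO libraries, and was 3.14-fold lower in KO (edgeR adjusted p = 0.000807). Cell type markers differed as well, although the label is epidermis. Cornified keratinocyte genes took 5.71% and 5.37% of the coding total in KO, where WT had 1.70% and 1.58%, and all 10 tested rose. Fibroblast genes took 4.27% and 4.82% in KO against 8.78% and 13.0% in WT, with 6 of 10 lower. Adipocyte genes took 0.0855% and 0.0703% against 0.215% and 0.159%, with 9 of 10 lower, and 7 of 7 sebocyte and 5 of 7 T cell genes were lower too. Hair shaft genes were higher in 8 of 8, while of 8 basal keratinocyte genes 2 rose and 3 fell. By the same test 19.9% of all transcripts were higher in KO and 19.1% lower. Only genes that reached 10 counts in at least 2 libraries were tested. The hair shaft genes Krtap8-1 and Krtap7-1 did so in the KO libraries alone, so their place among the 8 depended on their KO counts. In bulk tissue, fewer cells of a type and less RNA per cell cannot be told apart. The part of this mix in the results on respiratory genes was not tested.

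Most subunits of complexes III, IV and V carried more footprints in the knockout, while 3 of the 4 subunits of complex II did not pass the test. A count is listed in the table only where it exceeds 0.01 footprints per nt of coding region. Of the 45 genes, 42 were listed in all 4 libraries and 41 of these also reached 10 counts in at least 2 libraries and were tested. Of the 41, 34 were higher in KO, 0 were lower and 7 did not pass, in edgeR's quasi-likelihood test with Benjamini-Hochberg adjustment over 10953 transcripts at a threshold of 0.05. At an unadjusted p under 0.05, 0 of the 41 were lower as well, and DESeq2 called 26 higher and 0 lower, where it called 13.9% of all transcripts higher. Over all transcripts tested, 19.9% were higher, 19.1% lower and 39.0% either. The median log2 change of the 41 was 0.61 against −0.02 for all transcripts. Both KO libraries lay above both WT libraries for 38 of the 41, which held for 35.4% of all transcripts, and both lay below for 1 (36.5% of all). Scaled to library totals alone, which lowers the median of all transcripts to −0.20, 24 of the 41 were higher and 0 lower, against 13.7% higher and 27.6% lower over all transcripts.

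**Figure D1:**
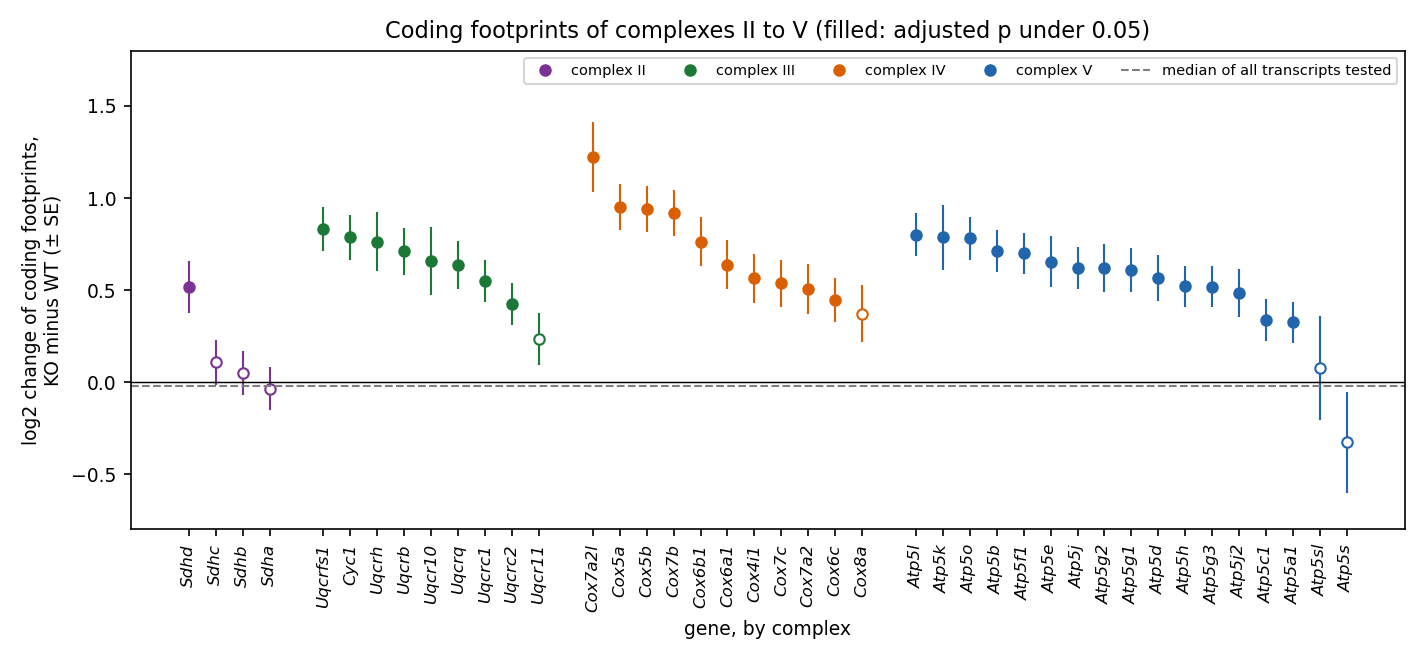
Log2 change of coding footprints (KO minus WT, vertical axis) with its SE for the 41 genes tested, grouped by complex along the horizontal axis. Filled points passed the test at an adjusted p of 0.05, open points did not, and the dashed line is the median of all transcripts tested; Sdha, Sdhb, Sdhc and Atp5sl lie nearest to it and Atp5s lies below it.

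By complex, 1 of 4 tested genes rose in complex II, 8 of 9 in complex III, 10 of 11 in complex IV and 15 of 17 in complex V. The median log2 changes were 0.08, 0.66, 0.64 and 0.61 in the same order. As a share of all coding footprints, complex III took 0.102% and 0.100% in KO against 0.0770% and 0.0726% in WT. Complex IV took 0.104% in both KO libraries and 0.0800% and 0.0659% in WT. Complex V took 0.375% and 0.382% in KO against 0.297% and 0.278% in WT. For these 3 complexes both KO libraries were above both WT libraries. Complex II took 0.0349% and 0.0330% in KO against 0.0381% and 0.0349% in WT, and the genotypes lay within their spread. A two-sided exact permutation test gave p = 0.33 for complexes III, IV and V, the smallest that 2 against 2 libraries allow. The same exact permutation test gave p = 0.67 for complex II, and these p-values are unadjusted.

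**Figure D2:**
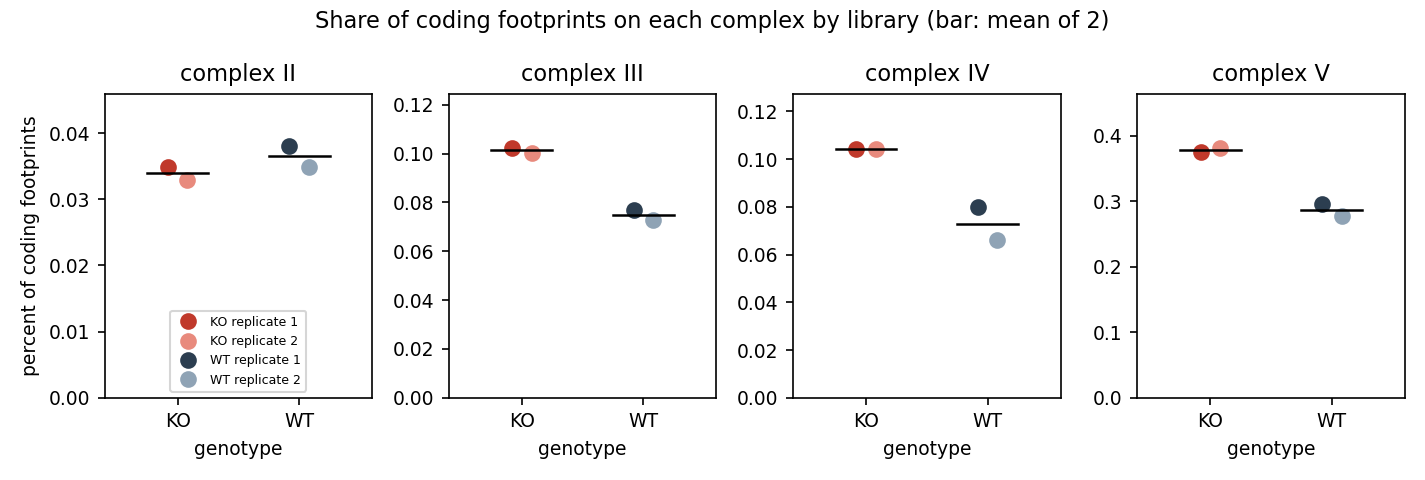
Percent of all coding footprints (vertical axes, each starting at 0) on complexes II, III, IV and V in each library. Points are libraries, with 2 per genotype, and bars are their means; the KO points lie above the WT points for complexes III, IV and V and not for complex II.

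A ratio within a library does not depend on how libraries are scaled. For every 100 footprints on complexes III to V, complex II had 6.01 and 5.62 in KO replicates 1 and 2 and 8.39 in both WT libraries. The KO mean was 5.81 ± 0.273 and the WT mean 8.39 ± 0.00574 (SD, n = 2; exact permutation p = 0.33, the smallest possible). Both KO libraries were below both WT libraries. Complexes III and V kept closer proportions: for every 100 footprints on complex V, complex III had 26.8 ± 0.732 in KO and 26.1 ± 0.125 in WT (SD, n = 2; exact permutation p = 0.33), and these values did not overlap either. The corresponding values for complex IV were 27.5 ± 0.344 and 25.4 ± 2.29 (SD, n = 2; exact permutation p = 0.33).

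Nrf1 and the ETS factor Gabpa are known activators of respiratory chain genes, and promoter sequence was therefore searched for their motifs. RefSeq promoter windows (GRCm38.p6, from 250 bases before to 50 after the gene's start) were matched for 35 of the 45 genes. The NRF1 motif, searched as GCGC, any base (N) and TGCGC, was found on either strand in 9 of the 35 promoters (25.7%) and in 4.78% of 27025 promoters. CCGGAAG, searched as the ETS motif, was found in 11 (31.4%) and in 9.12% of all. The 27025 promoters were not limited to genes with footprints in this tissue, as the 35 were. The motifs were counted separately, whether or not they overlapped. Stretches of 30 bases are shown for genes that rose and for Sdha, which did not, since both kinds hold a match. Each is written 5′ to 3′ on the gene's strand, with the match in capitals; a match on the other strand reads GCGCA, any base and GCGC for NRF1 and CTTCCGG for ETS.
Sdha, NRF1, chr13:74350276-74350305, minus strand: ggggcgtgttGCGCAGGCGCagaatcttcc
Cox6a1, NRF1, chr5:115349101-115349130, minus strand: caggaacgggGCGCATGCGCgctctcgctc
Atp5k, NRF1, chr5:108434430-108434459, minus strand: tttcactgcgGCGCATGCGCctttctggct
Sdhd, ETS, chr9:50603876-50603905, minus strand: cgtctcctgcCTTCCGGttcacgcttcagg
Uqcrh, ETS, chr4:116075061-116075090, minus strand: gtatgccgcaCTTCCGGccaggtcgccgga
Cox6a1, ETS, chr5:115348955-115348984, minus strand: cccatttccgCTTCCGGcgcgccggtgtag
Of the matched promoters of complex II, 2 of 3 held the NRF1 motif, as did 5 of 16 of complex V, 1 of 5 of complex III and 1 of 11 of complex IV. The ETS motif was in 2 of 3 of complex II and 4 of 16 of complex V. It was also in 2 of 5 of complex III and 3 of 11 of complex IV. A match describes the letters and is not a binding site.

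Complex II oxidises succinate in its catalytic subunits Sdha, the flavoprotein, and Sdhb, the iron-sulfur protein, which Sdhc and Sdhd anchor in the membrane. In CPM, counts scaled to a common library size with TMM factors, Sdha had 178 and 158 CPM in KO against 175 and 170 in WT. The genotypes overlapped, with a log2 change of −0.04 (SE 0.116, edgeR adjusted p = 0.834). Sdhb had 83.6 and 81.4 CPM in KO against 83.0 and 76.2 in WT, also overlapping (0.05, edgeR adjusted p = 0.778). Sdhc had 73.0 and 67.6 against 66.1 and 64.4 CPM, a small difference that did not pass (0.11, edgeR adjusted p = 0.519). Sdhd, the smaller anchor, had 44.6 and 39.3 CPM in KO against 29.6 and 29.1 in WT, so both KO libraries were higher. It rose by 0.52 (SE 0.141, edgeR adjusted p = 0.0175). That call was lost without KO replicate 1 (0.42), WT replicate 1 (0.52) or WT replicate 2 (0.51), with library totals alone (0.34) and with DESeq2 (0.53). With library totals alone Sdhb (−0.13) and Sdhc (−0.07) changed sign, as Sdhb did without WT replicate 2 (−0.01) and Sdha without KO replicate 2 (0.05), none past the threshold.

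Complex III moves electrons from ubiquinol to cytochrome c, and its largest increases were in genes for redox subunits. Uqcrfs1, the Rieske iron-sulfur protein, had 158 and 169 CPM in KO against 96.4 and 86.8 in WT. It rose 1.78-fold (log2 change 0.83, SE 0.120, edgeR adjusted p = 0.000665). Cyc1, the cytochrome c1 subunit, had 97.5 and 91.1 CPM in KO against 52.9 and 56.5 in WT, a 1.72-fold rise (edgeR adjusted p = 0.00109). Both genes stood clearly apart between genotypes. Uqcrc1 and Uqcrc2, the large core proteins on the matrix side, rose less, by 0.55 and 0.42. Uqcrc1 had the most footprints of the complex, at 348 and 317 CPM in KO against 229 and 225 in WT.

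Among the small accessory subunits of complex III, Uqcrh, the hinge protein that contacts cytochrome c1, rose by 0.76, Uqcrb by 0.71, Uqcr10 by 0.66 and Uqcrq by 0.64. Uqcr11 had the lowest change of the complex, at 36.4 and 35.1 CPM in KO against 31.8 and 28.8 in WT (0.23, SE 0.141, edgeR adjusted p = 0.219). Its KO libraries were both higher, but the difference did not pass. The Uqcr10 call was lost without KO replicate 1 (0.42) or WT replicate 1 (0.62), and the Uqcrc2 call without WT replicate 1 (0.36); both were also lost with library totals alone and with DESeq2.

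Complex IV passes electrons from cytochrome c to oxygen; its nuclear subunits surround a mitochondrially encoded core. The largest change among the 41 genes of complexes II to V was in Cox7a2l, a relative of Cox7a2 known to join complexes III and IV into supercomplexes. It had 26.3 and 32.8 CPM in KO against 13.5 and 11.5 in WT. Both KO libraries were well above WT, and Cox7a2l rose 2.33-fold (log2 change 1.22, SE 0.189, edgeR adjusted p = 0.00102). Its relative Cox7a2, a structural subunit, had 76.1 and 63.5 CPM in KO against 50.1 and 48.0 in WT (0.51, edgeR adjusted p = 0.0159). Per 100 footprints on Cox7a2, Cox7a2l had 34.5 and 51.6 in KO against 27.0 and 24.0 in WT. The KO libraries were both higher but far apart, at 43.1 ± 12.1 against 25.5 ± 2.11 (SD, n = 2; exact permutation p = 0.33, the smallest possible).

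Cox5a and Cox5b, which lie on the matrix side of the enzyme, rose next, by 0.95 and 0.94, and Cox7b by 0.92. Cox5a had 143 and 128 CPM in KO against 72.8 and 66.9 in WT (1.94-fold, SE of the log2 change 0.125, edgeR adjusted p = 0.000386). Cox6b1, on the side of cytochrome c, rose by 0.76, Cox6a1 by 0.64, Cox4i1 by 0.56, Cox7c by 0.54 and Cox6c by 0.44. Cox4i1, the common form of subunit 4 and the gene of this complex with the most footprints, had 204 and 219 CPM in KO against 158 and 127 in WT. Cox8a had the lowest change, with 44.1 and 47.2 against 39.4 and 30.7 CPM, and did not pass (0.37, SE 0.155, edgeR adjusted p = 0.0846). The number of complex IV genes called fell from 10 to 6 with library totals alone, as it did without WT replicate 2; Cox4i1, Cox6c, Cox7a2 and Cox7c lost their calls in both settings. Cox7a2 also lost its call with DESeq2 and without KO replicate 1 or WT replicate 1, and Cox6c with DESeq2.

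Tissue isoforms of complex IV were scarce in all 4 libraries. Cox6a2, Cox7a1 and Cox8b encode the forms of subunits 6A, 7A and 8 used by heart and skeletal muscle, where Cox6a1, Cox7a2 and Cox8a are the common forms. Cox6a2 had 10 footprints in WT replicate 1 and was unlisted in the other 3 libraries, where it can have had at most 2. Cox7a1 had 6 and 2 footprints in WT replicates 1 and 2 and was unlisted in both KO libraries, which allows at most 1. Cox8b had 3 footprints in KO replicate 1, 6 in WT replicate 1 and 2 in WT replicate 2, and was unlisted in KO replicate 2, where it can have had at most 1. WT replicate 1 thus held the most footprints of each. Together the muscle forms took 2.56% of the footprints on both forms in WT replicate 1, 0.707% in WT replicate 2, 0.313% in KO replicate 1 and 0% in KO replicate 2, with unlisted counts set to 0. With unlisted counts at their upper limit the KO values were 0.624% and 0.488% and that of WT replicate 2 was 1.06%; the exact permutation p was 0.33 either way, the smallest possible. Skeletal muscle marker genes were highest in the same library, at 0.198% of coding footprints in WT replicate 1 against 0.0700% in WT replicate 2 and 0.0548% and 0.0576% in KO. Myh4, a fast muscle myosin, had 2562 and 291 footprints in WT replicates 1 and 2 and 63 in KO replicate 1, and was unlisted in KO replicate 2. Of the 15 muscle markers in the table, 3 were listed in all libraries and tested, of which Mylpf and Tpm2 were lower and Acta1 did not pass. Over all transcripts 19.1% were lower. Mylpf had 103 and 14 footprints in WT replicates 1 and 2 and 12 and 7 in KO, so WT replicate 1 held most of them. The part of muscle RNA in these isoform values was not tested. Cox4i2, known as the lung form of subunit 4, had 17 and 9 footprints in KO and 8 in each WT library, below the filter on low counts, and stood at 1.84 and 0.954 per 100 of Cox4i1 in KO against 0.888 and 1.45 in WT.

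ATP synthase has a catalytic F1 head, a ring of c subunits in the membrane, a peripheral stalk that holds the head still, and small membrane subunits. All 15 genes for these parts rose, by log2 changes of 0.33 to 0.80. In the head, Atp5b, the catalytic beta subunit and the most abundant gene of all 45, had 1398 and 1385 CPM in KO against 836 and 863 in WT. It rose 1.64-fold (log2 change 0.71, SE 0.115, edgeR adjusted p = 0.00129). Its partner Atp5a1, the alpha subunit, had 844 and 829 CPM in KO against 684 and 651 in WT. Both KO libraries were higher, and the rise was 1.25-fold (0.33, SE 0.112, edgeR adjusted p = 0.0444). Atp5c1, the gamma subunit that turns within the head, rose by 0.34, Atp5d (delta) by 0.57 and Atp5e (epsilon) by 0.65. The calls for Atp5a1 and Atp5c1 were lost without each of the 4 libraries in turn, with library totals alone (0.15 and 0.16) and with DESeq2.

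Alpha and beta alternate in the head in equal numbers, so their footprint densities can be set side by side. Per nt of coding region, Atp5b had 1.73 and 1.75 times the footprints of Atp5a1 in KO replicates 1 and 2 and 1.28 and 1.39 times in WT. Both KO libraries were above both WT libraries, at 1.74 ± 0.0103 against 1.33 ± 0.0761 (SD, n = 2; exact permutation p = 0.33, the smallest possible). The single gamma subunit was lower on the same scale. Atp5a1 had 2.29 ± 0.0826 times the density of Atp5c1 in KO and 2.31 ± 0.207 times in WT (SD, n = 2, exact permutation p = 1.00). Atp5b had 3.99 ± 0.167 times the density of Atp5c1 in KO and 3.07 ± 0.101 times in WT (SD, n = 2, exact permutation p = 0.33). For that ratio both KO libraries were above both WT libraries.

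**Figure D3:**
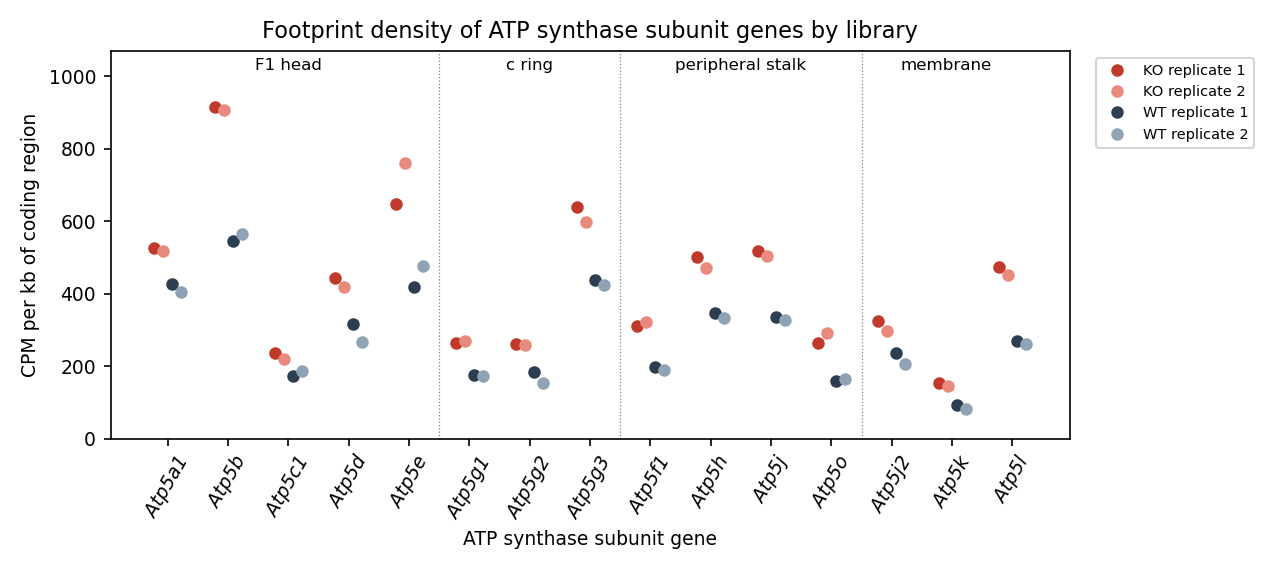
Footprint density, in CPM per kb of coding region, of the 15 ATP synthase subunit genes in each library, ordered by part of the enzyme. Atp5b reaches 914 and 905 in KO against 547 and 564 in WT, and Atp5k is the lowest in every library.

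Atp5g1, Atp5g2 and Atp5g3 encode the same mature c subunit behind different import sequences. They rose by 0.61, 0.62 and 0.52. Atp5g3 supplied 54.9% and 53.0% of the footprints on these 3 genes in KO against 54.8% and 56.6% in WT. The genotypes overlapped (exact permutation p = 0.67). Their summed density was 1166 and 1126 CPM per kb in KO against 799 and 752 in WT, above that of either Atp5a1 or Atp5b in each library. The 3 coding regions share similar stretches, and the treatment of reads that match several genes is not stated in the labels or column descriptions, so their separate values are uncertain; so are those of subunit genes with processed pseudogenes.

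In the stalk, Atp5o, the subunit OSCP that joins stalk and head, rose by 0.78, Atp5f1 (subunit b) by 0.70, Atp5j (F6) by 0.62 and Atp5h (subunit d) by 0.52. Among the membrane subunits, Atp5l (subunit g), which has a role in pairing ATP synthases, had 120 and 114 CPM in KO against 67.9 and 66.0 in WT. It had the largest rise of complex V, at 1.74-fold (0.80, SE 0.118, edgeR adjusted p = 0.000774). Atp5k (subunit e) rose by 0.79 and Atp5j2 (subunit f) by 0.48. The Atp5j2 call was lost without KO replicate 1 (0.42) or WT replicate 2 (0.39), with library totals alone (0.31) and with DESeq2 (0.50).

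The remaining Atp5 symbols are not core subunits and did not pass the test. Atp5s, named for coupling factor B, had 33 and 24 footprints in WT and 19 and 21 in KO (log2 change −0.33, SE 0.275, edgeR adjusted p = 0.379). Atp5sl had 21 and 19 against 25 and 18 (0.08, edgeR adjusted p = 0.869), a sign that turned with library totals alone (−0.10). These were the least abundant of the 41 genes, at 4.28 to 5.67 CPM on average in either genotype. RefSeq lists them under the symbols Dmac2l and Dmac2.

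Short coding regions tended to gain footprints across the whole table, and many respiratory subunits are short. Among transcripts outside the 45 genes, the median log2 change was 0.43 for coding regions of up to 300 nt, 0.18 for 301 to 600 nt, −0.01 for 601 to 1200 nt and −0.10 above that. In the same 4 classes the respiratory genes had medians of 0.65, 0.56, 0.52 and 0.42. They were higher in 16 of 18, 10 of 12, 4 of 6 and 4 of 5 genes, where 41.9%, 27.9%, 18.0% and 16.8% of other transcripts were higher. Within each class the respiratory median lay above that of the other transcripts. Lengths are the deposited sizes of the counted regions, which were not checked against full coding sequences. The part of coding length in these results was not tested.

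**Figure D4:**
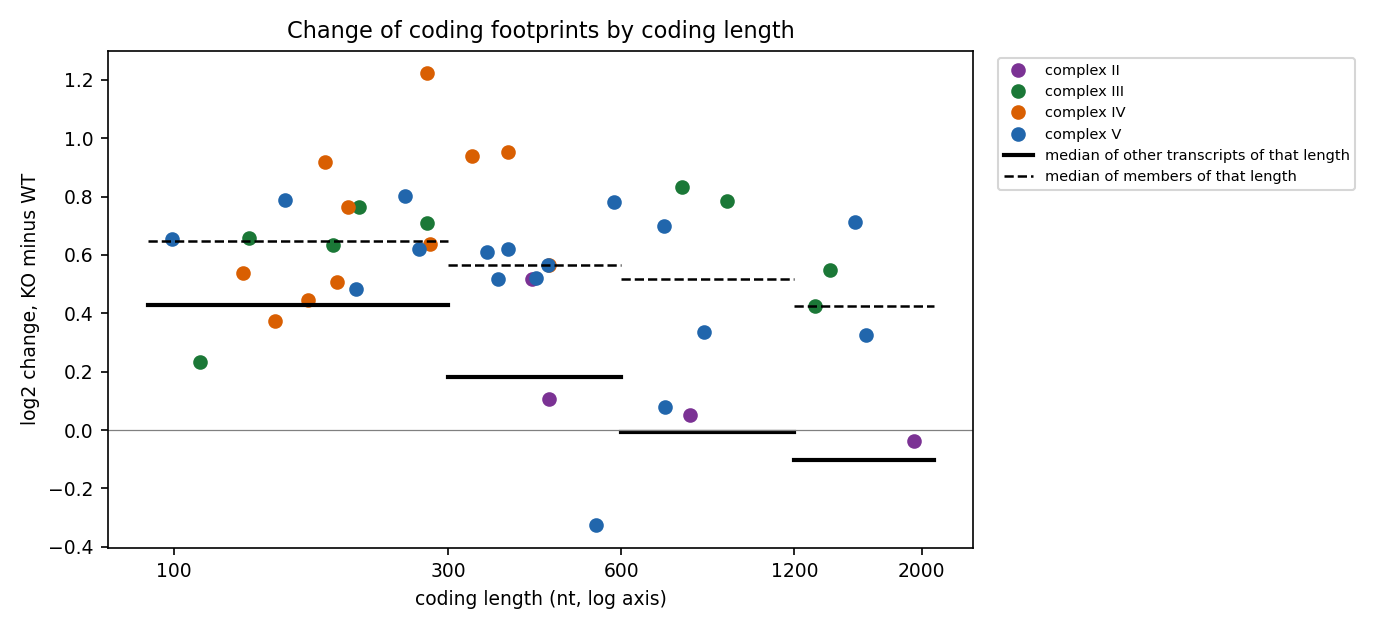
Log2 change of coding footprints (KO minus WT) against coding length in nt on a log axis, for the 41 genes tested, coloured by complex. Solid bars are medians of all other transcripts in 4 length classes (the last holds all above 1200 nt) and dashed bars those of the respiratory genes, which lie higher in each class.

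Genes around the complexes did not all move with them. Of 30 tested assembly factors for complexes II to V, 3 rose and 0 fell, against 19.9% and 19.1% of all transcripts, with a median log2 change of 0.27. They were Uqcc2, which acts in complex III assembly (0.94), Lrpprc, which stabilises mitochondrial mRNA (0.57), and Pet100, a complex IV assembly factor (0.49). In KO replicate 1 the 31 assembly factors listed held 2233 footprints together, where the 45 respiratory genes held 30373. A gene with fewer footprints is harder to call, and the part of depth in this count was not tested. Among 13 tested partners of the chain, 6 rose: Cycs, the electron carrier cytochrome c (1.31), Usmg5, a small ATP synthase subunit outside the symbol patterns (1.11), the phosphate carrier Slc25a3 (0.95), Ndufa4, a subunit of complex IV named for complex I (0.95), the ADP/ATP carrier Slc25a5 (0.91) and the ATP synthase inhibitor Atpif1 (0.60). Cycs had 316 and 180 footprints in WT, fewer than the 561 and 510 in KO. Slc25a4, the ADP/ATP carrier known from muscle, did not pass (−0.20), and neither did the electron transfer flavoproteins Etfa and Etfb or the 3 Vdac channels of the outer membrane.

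Of 17 citric acid cycle and pyruvate dehydrogenase genes, the pathway that complex II shares, 5 rose and 1 fell, where 19.9% of all transcripts were higher and 19.1% lower. Ogdh (0.80), Idh3a (0.73), Mdh2 (0.63), Dlst (0.63) and Suclg1 (0.43) rose, and the NADP-dependent isocitrate dehydrogenase Idh2 fell by 0.35. Fh1, the enzyme after complex II in the cycle, did not pass (0.08, edgeR adjusted p = 0.668). The median of 0.12 lay near that of complex II. Among 12 tested regulators of respiratory genes, the coactivator Pprc1 rose (0.70) and the mitochondrial DNA polymerase Polg fell by 0.48, so 1 of 12 was called in each direction against the same shares. Nrf1 (−0.14), Gabpa (0.01) and Tfam (−0.38) did not pass.

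Nuclear subunits of complex I rose in 17 of 36 genes, with 0 lower and a median log2 change of 0.36. Mitochondrial ribosomal proteins rose in 24 of 76, with 0 lower and a median of 0.41. Over all transcripts 19.9% were higher and 19.1% lower. In KO replicate 1 the 36 complex I genes held 9652 footprints and the 76 mitochondrial ribosomal protein genes held 7419. The 45 genes of complexes II to V held 30373. The part of depth in these numbers of called genes was not tested. As a share of coding footprints, complex I had 1.14 times its WT value in KO and complexes III to V 1.34 times. Whether these ratios differ was not tested.

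Footprints in the 5′ UTR of the respiratory genes were more frequent in KO. Summed over the 41 genes with a 5′ UTR that were listed in all libraries, they numbered 384 and 363 in KO against 159 and 128 in WT. Per 100 coding footprints this was 1.28 and 1.31 in KO against 0.621 and 0.680 in WT. The KO libraries were higher, by 1.99 times on average (exact permutation p = 0.33, the smallest possible). Over 10739 transcripts the same ratio was 1.53 and 1.78 in KO against 1.11 and 1.01 in WT, also higher in both KO libraries. Complex II had at most 2 such footprints in any library.

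Single genes were tested for the ratio of 5′ UTR to coding footprints as an interaction of genotype and region, a test added after the data had been seen. Of 11 respiratory genes with enough counts, 0 were called by edgeR with the typical change of the ratio removed, where 0.618% of 1618 transcripts were higher and 1.79% lower. At an unadjusted p under 0.05, 3 of the 11 were higher and 1 was lower. Without WT replicate 1, Atp5j was lower, and without WT replicate 2, Atp5d was higher. Without removing the typical change, 7 of the 11 were higher and 0 lower, against 29.6% and 0.865% of the 1618. Only genes with 10 counts in at least 2 libraries in both regions were tested. Atp5d, Cox8a and Uqcr11 reached this in the 5′ UTR through the KO libraries alone. Their place among the 11, and among the 7, thus depended on their KO counts. Cox7b had 51 and 28 footprints in its 5′ UTR in KO against 9 and 11 in WT. Atp5d had 28 and 19 against 0 and 4, and Uqcrh 47 and 53 against 22 and 15. In all 3 genes both KO libraries held more than both WT libraries. These are raw counts, and the coding footprints of all 3 genes rose as well. The ratio of Uqcrh was not called with the typical change removed (log2 change 0.05). It was not called without removing it either (0.84, edgeR adjusted p = 0.0612). With the typical change removed, Atp5d stood at 2.32 and Cox7b at 0.43, neither called. Atp5j (−1.05), Atp5g3 (−0.41) and Atp5e (−0.25) lay below 0.

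The 3′ UTR of respiratory genes held few footprints, but more in KO. Pelota is known to act on ribosomes found past the stop codon, which makes this region of interest. Summed over 42 genes, 3′ UTR footprints numbered 78 and 83 in KO against 22 and 33 in WT. Per 100 coding footprints this was 0.257 and 0.296 in KO against 0.0848 and 0.173 in WT. The means were 0.277 ± 0.0278 against 0.129 ± 0.0626 (SD, n = 2; exact permutation p = 0.33, the smallest possible). Both KO libraries were higher. Atp5b alone gave 9 and 15 of these in KO against 3 and 6 in WT, and without it the ratios were 0.287 and 0.308 against 0.0896 and 0.177. Over all 10886 transcripts the ratio went the other way, at 0.564 and 0.637 in KO against 0.703 and 0.672 in WT. It did so too without the 10 transcripts with most 3′ UTR footprints, at 0.241 and 0.279 against 0.353 and 0.372. Counts per gene were at most 15, so no single gene was tested, and without WT replicate 1 or 2 the log2 ratio of the respiratory genes stood at 0.67 or 1.71 in place of 1.10.

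**Figure D5:**
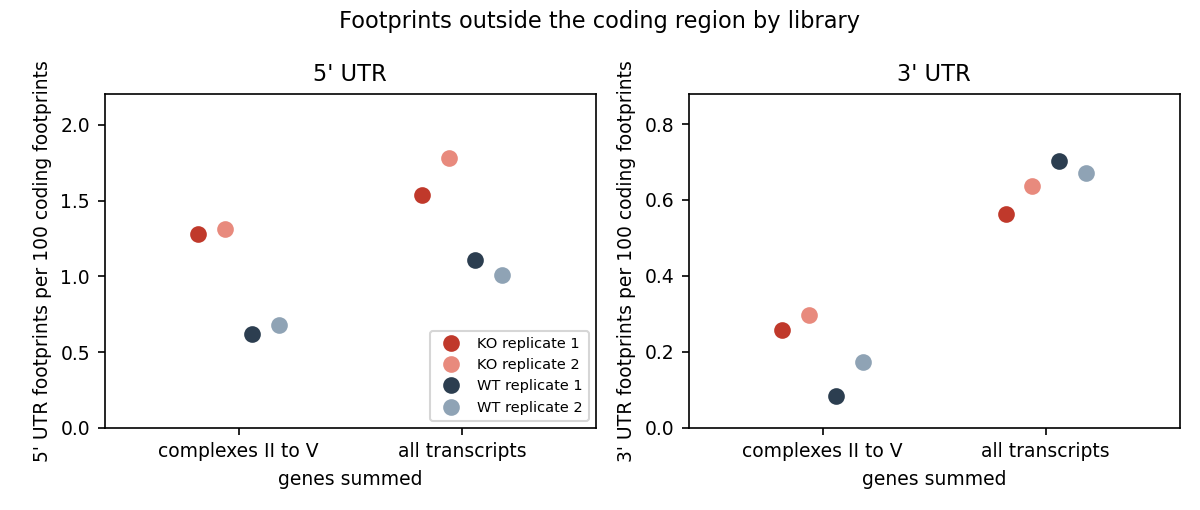
Footprints in the 5′ UTR (left) and 3′ UTR (right) per 100 coding footprints in each library, summed over the respiratory genes and over all transcripts. For the 5′ UTR the KO points lie above the WT points in both sets; for the 3′ UTR they lie above in the respiratory genes and below over all transcripts.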

How the data were processed

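Per the labels, total RNA from primary epidermis was depleted of ribosomal RNA; the builds hg19 and mm9 and the tools TopHat2 2.0.10, Bowtie2 2.2.6 and CASAVA 1.8 appear, without a role, in the submitters' processing notes. The deposited table gives raw counts of footprints of 28 to 34 nt per region of mm9 transcripts, per the deposited column descriptions; a second table described as short footprints is byte-identical and was not used. Region sizes are as deposited by the authors, serve as coding length here and were not checked against full coding sequences. An unlisted count is at most 0.01 per nt of coding region.

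Coding counts of the transcripts listed in all 4 ribosome profiling libraries, with at least 10 counts in at least 2, were scaled by TMM, with factors of 0.926 and 0.957 for the KO and 1.09 and 1.04 for the WT libraries. The test was the quasi-likelihood test of edgeR 4.0.16 in R 4.3.3, with Benjamini-Hochberg adjustment over all 10953; standard errors come from the F statistic. The common biological coefficient of variation was 11.1%. Sums per library went into exact two-sided permutation tests. The 5′ UTR test used the library as a factor and TMM within each region. Fits were tested on simulated data. The coding test called 4.48% of simulated log2 changes of 0.5, 79.1% of 1 and 95.5% of 2. Of its calls 1.65% were false. Genes that did not pass may thus still have changed by the smaller sizes. Far fewer transcripts were changed in the simulation than were called in the data, so its rates need not hold there. The 5′ UTR test called 90.2% of log2 changes of 2, with 5.17% of its calls false. Alternatives were DESeq2 1.42.0, other scalings, filters, unlisted counts at 0, a replicate block and leaving out each library. Replicates differed by more than sampling noise (chi-square per gene of 5.50 in KO and 10.1 in WT). Named genes were, per complex, those with the highest and lowest change and the most footprints, the tissue isoforms and their partners, and up to 4 called genes with the largest change in each other list; other names were chosen with the values in view. The members and lists were chosen with earlier results of these data known.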

Additional observations from a re-analysis of the deposited data

How the results depend on the processing

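Of the 41 respiratory genes tested, 34 were higher as reported, 34 with DESeq2 size factors, with the replicate block and with TMM factors computed without marker genes (added after seeing the data), 34 of 42 with no filter on low counts (where Cox4i2 was tested and not called), 33 with unlisted counts at 0, 26 with DESeq2 and 24 with library totals alone. Leaving out each library gave 26 to 32, with 0 lower in every setting named here. In complex II the count of 1 became 0 with library totals alone and with DESeq2, and ranged from 0 to 1 over the left-out libraries. In complex IV the count of 10 became 6 with library totals alone and ranged from 6 to 10. Using CPM with TMM library sizes in place of percent of coding footprints moved the log2 ratio from −0.10 to 0.066 in complex II, from 0.44 to 0.61 in complex III, from 0.51 to 0.69 in complex IV and from 0.40 to 0.57 in complex V; leaving out libraries gave 0.38 to 0.66 in complex IV. The 3′ UTR log2 ratio of 1.10 ranged from 0.67 to 1.71. The sign of the complex II ratio thus turned with the scale. Among single genes, the signs of Sdhb (−0.13), Sdhc (−0.069) and Atp5sl (−0.10) turned with library totals alone. Over the left-out libraries Sdha ranged from −0.12 to 0.050 (positive without KO replicate 2). Sdhb ranged from −0.0065 to 0.11 (negative without WT replicate 2). The 5′ UTR test called 0 genes as reported, 7 with TMM factors of the coding counts, and 0 to 1 without single libraries. Cox8a passed without WT replicate 1. The cause of these moves was not tested. The difference between replicates 1 and 2 in KO was not correlated with that in WT over the transcripts tested (r = −0.00574). This value cannot show whether same-numbered libraries shared a preparation. The block changed no call of the 41. Depth limited the muscle isoforms and single 3′ UTRs, for which no test per gene was run.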
